A study of Homo sapiens with 30 samples.

Results

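The genes described here are 10 imprinted growth genes, DLK1, IGF2, PEG3, PEG10, MEST, NNAT, GRB10, PLAGL1, PHLDA2 and IGF2R, chosen by symbol because DLK1 differed more than 100-fold between the cell lines of the study. Of the 10, 9 have an entry among the 18132 of the RNA-seq table and 9 among the 20582 of the PRO-seq table. MEST has no RNA-seq value here and PEG3 no PRO-seq value, so neither was analysed in that assay. The cells were G401, an established line from a malignant rhabdoid tumour of the kidney, and its derivative DTMYC. DTMYC cells lost their endogenous MYC gene by CRISPR-Cas9 editing and express a lentiviral MYC fused to a tag (HA and FKBP12F36V) through which the compound dTAG47 marks the protein for degradation. RNA-seq covered both lines after 24 h in DMSO, the solvent, or in 500 nM dTAG47, with 3 libraries in each of the 4 groups. ATAC-seq, which maps open chromatin, covered DTMYC cells after 24 h (3 DMSO and 3 dTAG47 libraries). PRO-seq, which counts engaged RNA polymerases (2 and 2 libraries), and MYC ChIP-seq (2 and 3 libraries) covered DTMYC cells after 4 h. All groups share the rhabdoid background, and the labels do not say whether DTMYC is a clone or whether replicates were separate cultures, so each p-value reflects the variation among these libraries, which may be technical.

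Positions are those of hg19, with strand. IGF2 (chromosome 11, 2150342 to 2170833, minus) and PHLDA2 (2949503 to 2950685, minus) share an imprinted region, and PEG10 (chromosome 7, 94285637 to 94299007, plus), MEST (130126012 to 130146306, plus) and GRB10 (50657760 to 50861159, minus) are far apart on chromosome 7. PLAGL1 (144261437 to 144385735, minus) and IGF2R (160390131 to 160534539, plus) are both on chromosome 6. DLK1 is on chromosome 14 (101192042 to 101201539, plus), PEG3 on chromosome 19 (57321445 to 57352096, minus) and NNAT on chromosome 20 (36149617 to 36152092, plus).

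Genomic imprinting restricts the expression of a gene to the copy from a given parent, through DNA methylation set in the germ line. Many paternally expressed genes, among them IGF2, DLK1, PEG3, PEG10 and MEST, favour fetal and placental growth, and several maternally expressed genes, among them PHLDA2, restrain it. Loss of this control is common in embryonal tumours of childhood, of which the IGF2 locus is the textbook case. MYC, the transcription factor depleted here, binds E-boxes, with CACGTG as the canonical form.

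RNA-seq libraries held 27854207 to 54633745 counts in genes, and PRO-seq libraries 18209879 to 23256313 counts in gene bodies. MYC mRNA was at 1366 ± 46.2 CPM (counts scaled by the TMM-normalised library size; SD, n = 3) in DTMYC cells and 235 ± 28.2 in parental cells in DMSO, and it separated the lines in every library. dTAG47 acts on the protein, so this mRNA is no check of degradation. Parental DMSO library 3 stood apart, with a mean correlation of 0.982 with the other libraries of its group, against 0.988 to 0.996 for the other 11. Results that rest on it are given with and without it.

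Of the 10 genes 3 had open chromatin at a start in every ATAC library, against 56.4% of all protein-coding genes. Sequences at open sites are shown first, for the E-boxes they hold or lack. RefSeq promoters (from GRCh38.p14, 250 bases before a start) were available for IGF2R, PLAGL1, GRB10 and MEST, and each was found at 1 place in GRCh37, the build of the peak files (hg19). IGF2R and PLAGL1 are printed because their promoters lay under an ATAC peak in all 6 libraries and hold CACGTG, shown in capitals. The IGF2R promoter is on the plus strand at chr6:160389864-160390113, directly before the annotated start of the gene. The PLAGL1 promoter is on the minus strand at chr6:144329397-144329646, before an internal start of the gene. The third sequence is 200 bases of the plus strand at chr7:94287388-94287587, in the first intron of PEG10, from the middle of a peak present in all 6 ATAC libraries. Its capitals mark a repeated word of 15 bases, CTCTGAGGTGAACTG.
IGF2R: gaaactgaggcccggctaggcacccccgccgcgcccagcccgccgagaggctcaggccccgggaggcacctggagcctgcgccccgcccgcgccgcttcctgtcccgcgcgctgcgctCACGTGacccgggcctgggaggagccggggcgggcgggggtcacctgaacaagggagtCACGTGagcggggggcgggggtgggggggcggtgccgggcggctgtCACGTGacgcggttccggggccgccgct
PLAGL1: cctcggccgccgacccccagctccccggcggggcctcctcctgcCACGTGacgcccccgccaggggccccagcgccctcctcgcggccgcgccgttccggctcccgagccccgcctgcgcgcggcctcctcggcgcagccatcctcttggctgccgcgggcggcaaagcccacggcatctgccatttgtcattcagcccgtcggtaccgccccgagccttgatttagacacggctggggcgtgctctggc
PEG10: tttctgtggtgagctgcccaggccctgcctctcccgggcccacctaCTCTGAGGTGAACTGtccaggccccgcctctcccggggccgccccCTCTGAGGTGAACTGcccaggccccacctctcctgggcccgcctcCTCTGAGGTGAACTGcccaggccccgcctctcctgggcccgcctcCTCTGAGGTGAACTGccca

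The IGF2R promoter holds 3 copies of CACGTG, a palindrome that reads the same on both strands, at 132, 74 and 28 bases before the start. The PLAGL1 promoter holds 1 copy, 206 bases before the start. Of 35116 RefSeq promoters of 250 bases 6.34% hold at least 1 copy and 0.0797% at least 3. The other 4 PLAGL1 promoters, all 5 of GRB10 and all 5 of MEST hold none. GC content was 79.2% in the IGF2R promoter and 75.6% in the PLAGL1 promoter. In the PEG10 intron, the 715 bases shared by all 6 peaks hold 6 copies of the repeated word, of which 4 fall in the printed bases, none on the other strand, and no CACGTG. It is the longest word with at least 6 copies there, a rule set after the sequence was seen, and no RefSeq promoter of 250 bases holds it on either strand. The stretch matched itself at 65.0% of bases when shifted by 90 bases, against a median of 30.6% over the other shifts from 10 to 100, as in a tandem array of related units. Its GC content was 69.7%.

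No member had a MYC peak within 1000 bases of any annotated start, in either DMSO or any dTAG47 library. Over all protein-coding genes, 18.2% had such a peak in at least 1 DMSO library and 5.8% in both. The only MYC peak within 5000 bases of a member start lay 1923 bases after the IGF2R start, in DMSO library 1, with a score of 17. Scores are 10 times the −log10 q of the peak caller, are the authors' own values, and start at 13 in that list. The E-boxes of the IGF2R promoter therefore stood in open chromatin without a called MYC peak. The lists differ widely in size, from 4010 peaks in DMSO library 1 to 7 in dTAG47 library 2, and their depth is unknown, so a missing peak does not show that MYC was absent.

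ATAC peaks lay within 1000 bases of a start of 7 of the 10 genes in at least 1 library and of 3 in all 6, namely IGF2R, PLAGL1 and PEG3. Over all protein-coding genes the shares were 72.3% and 56.4%. IGF2R encodes the receptor that takes IGF2 and lysosomal enzymes from the cell surface to lysosomes, and the highest-scoring peak at its starts ranked between the 57.9th and the 85.7th percentile of the library's own list. PLAGL1, a zinc-finger regulator of an imprinted gene network, had peaks in all 6 libraries at the promoter printed above. In all 6 it also had a peak within 172 bases of an annotated start near the upstream end of the gene. PEG3, a zinc-finger gene expressed from the paternal copy, had a broad peak over an internal start in each library, at chr19:57348900-57351356 in DMSO library 1. It did not reach the upstream end of the gene, at 57352096, in any library. In DMSO library 3 this peak was split in 2.

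**Figure D1:**
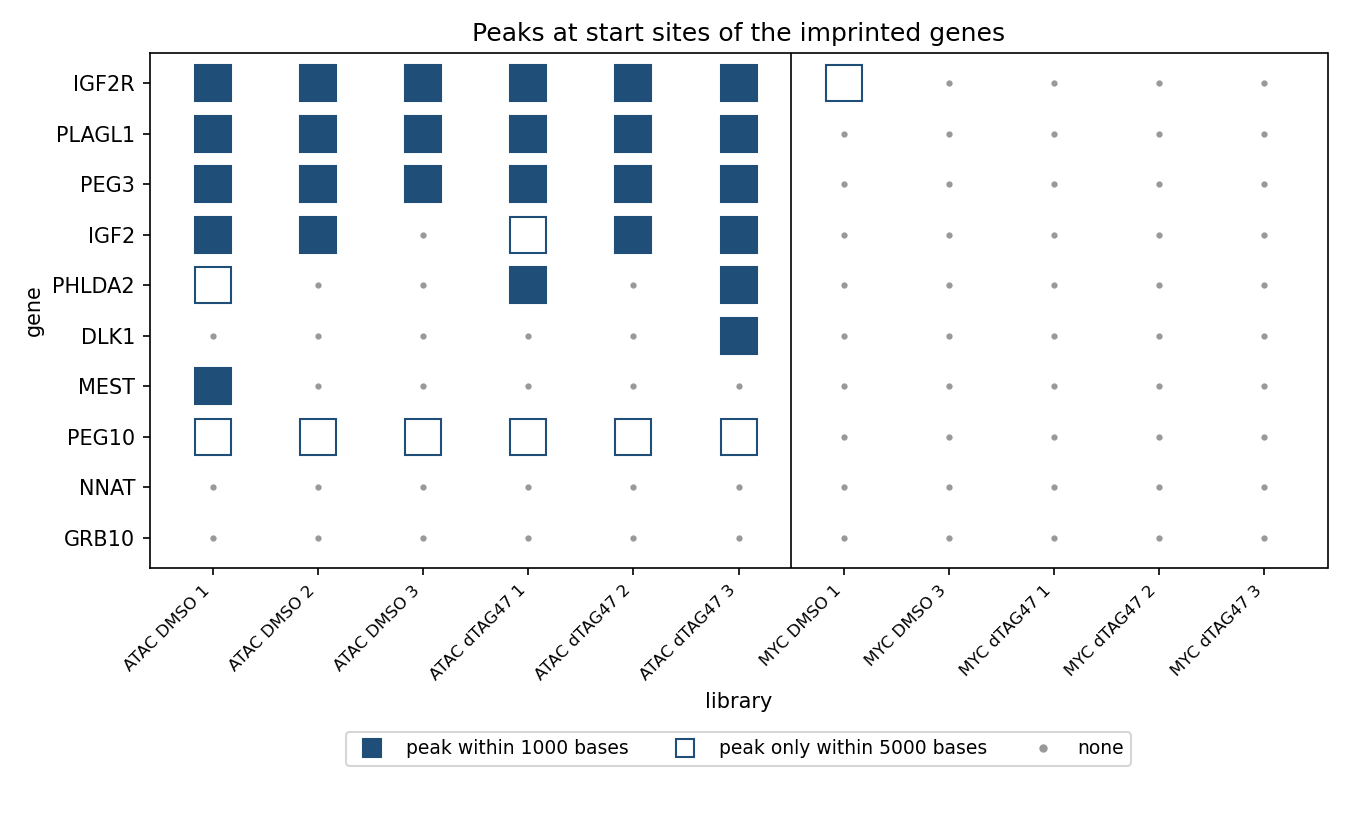
ATAC-seq and MYC ChIP-seq peaks at the annotated starts of the 10 genes, 1 row per gene and 1 column per library. Filled squares mark a peak within 1000 bases of a start, open squares a peak only within 5000 bases, and dots no peak; IGF2R, PLAGL1 and PEG3 are filled in all 6 ATAC libraries, PEG10 is open in all 6, and no MYC column holds a filled square.

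IGF2, the fetal growth factor, had a peak at an internal start in 4 libraries, 2 per treatment. PHLDA2, which restrains placental growth, had small peaks in dTAG47 libraries 1 and 3, with scores of 24 and 15, and none in DMSO. MEST, a paternally expressed gene of the hydrolase fold family, had 1 peak with a score of 18, in DMSO library 1. NNAT and GRB10 had none within 5000 bases. PEG10, a gene derived from a retrotransposon and needed for placenta formation, missed the 1000-base rule narrowly. Its intronic peak began 1035 to 1273 bases from the nearest start and stood at or above the 92.8th percentile of its list in all 6 libraries. For IGF2R, PLAGL1, PEG3, PEG10, NNAT, GRB10 and IGF2 the number of libraries with a peak at a start was the same in DMSO and dTAG47. For DLK1, MEST and PHLDA2 the counts were 0 and 1, 1 and 0, and 0 and 2 of 3, a spread that 3 libraries against 3 cannot resolve, since the smallest p an exact test gives there is 0.1.

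DLK1, a Notch-like transmembrane protein of fetal tissues and adrenal and neuroendocrine cells that keeps progenitors from maturing, differed most between the lines and had little open chromatin at its start. In DTMYC cells in DMSO its mRNA was at 572, 533 and 561 CPM, and in dTAG47 at 642, 614 and 599 CPM. In parental cells it was at 3.87, 3.91 and 3.09 CPM in DMSO and at 3.87, 3.23 and 3.53 CPM in dTAG47. All DTMYC libraries therefore lay far above all parental libraries, and no library was intermediate. The means in DMSO, 555 ± 20.2 and 3.62 ± 0.458 CPM (SD, n = 3), differed 153-fold, and those in dTAG47 175-fold. In bulk RNA a higher level per cell and a larger share of expressing cells cannot be told apart. This difference selected the genes, so it is a description and was not tested. A difference of at least 100-fold in either direction was found for 1.22% of the 13401 genes tested.

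**Figure D2:**
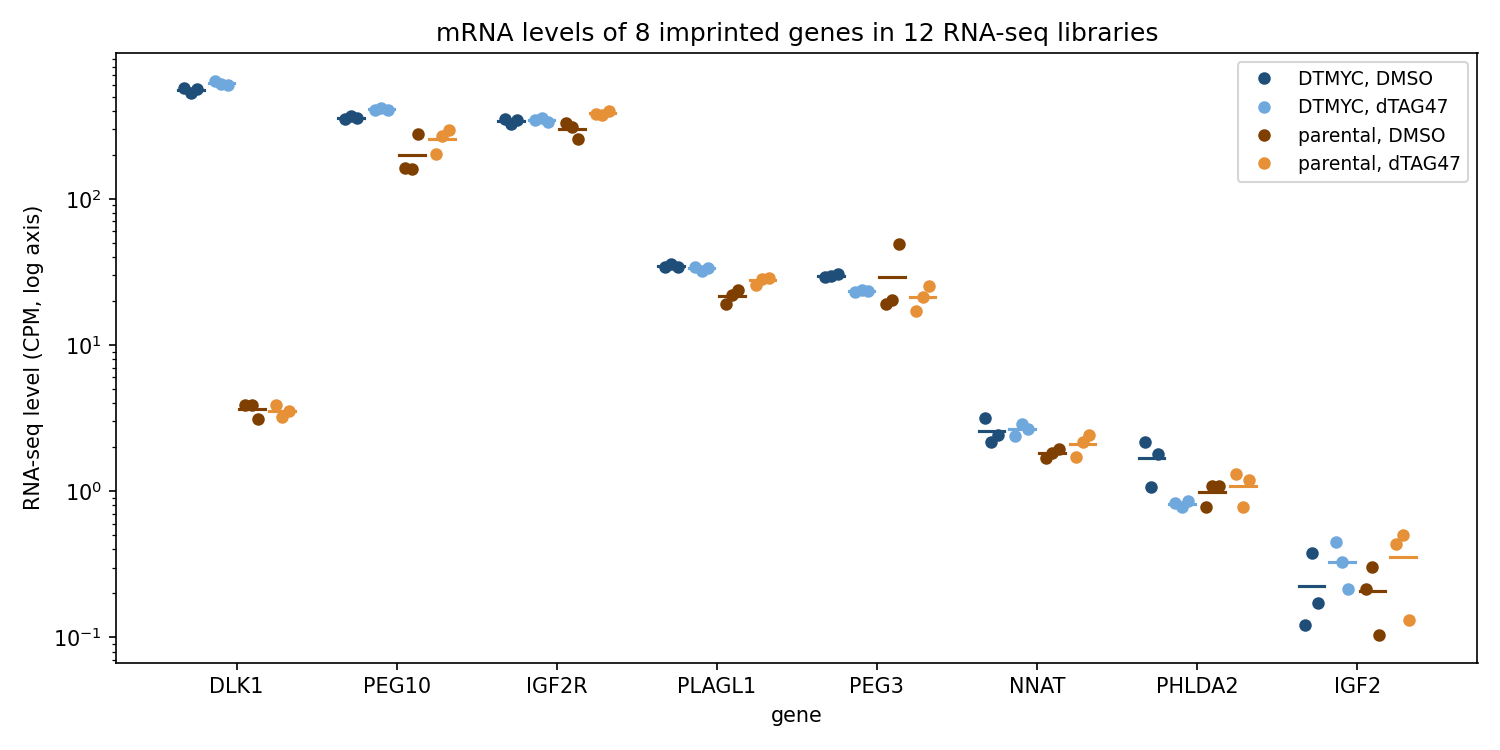
RNA-seq levels in CPM on a log axis for the 8 genes that passed the filter on low counts, with 1 point per library, 3 per group, and a short line at each group's mean. DLK1 lies between 533 and 642 CPM in DTMYC cells and between 3.09 and 3.91 CPM in parental cells, and in parental DMSO cells PEG3 and PEG10 each have 1 library above the other 2.

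Polymerase was found on the DLK1 gene in DTMYC cells, with gene body levels of 91.4 and 54.8 CPM in DMSO and 80.6 and 55.2 CPM in dTAG47. Per length this was 10.1 ± 3.57 CPM per kb in DMSO (SD, n = 2). That is the highest of the members, against 2.21 ± 0.0105 for IGF2R, 2.11 ± 0.140 for PEG10 and 0.609 for PLAGL1. Parental cells were not profiled by PRO-seq, so the difference between the lines cannot be followed to transcription. In both treatments library 1 was higher than library 2, by 1.67 and 1.46 times, and 0.672% of the 13397 genes tested reached both ratios. DLK1 had 10, 12, 10 and 10 counts in the promoter-proximal region, at which polymerase pauses in many genes.

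Most genes as active as DLK1 had an ATAC peak at a start in every library. Among genes with at least the DLK1 level of mRNA per length in DTMYC DMSO cells (242 CPM per kb), 82.9% of 76 had an ATAC peak in all 6 libraries and 2.6% in 1 library or none. Among genes with at least its gene body level per length these shares were 86.6% and 2.4% of 381. DLK1 itself had a peak in 1 library of 6, dTAG47 library 3, at chr14:101193252-101193412. That peak had a score of 27, at the 14.5th percentile of its list. These shares, and the PEG10 share below, cover only other genes whose symbol has an annotated protein-coding start on an autosome or X. DLK1 ranked 100th by mRNA per length over all genes, so some genes above it are missing from the 76. All are genes of the same cells, and depth per library is not known. PEG10, at 53.9 CPM per kb, had a peak at a start in no library, and 0.4% of the 708 genes at or above it had none.

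The 200 kb on either side of the DLK1 start in the PRO-seq table (position 101193202) held 28 separate ATAC regions. None was present in all 6 libraries and 21 were in 1 library only. The regions with most support, in 5 libraries each, lay at −140.0 kb and −81.2 kb from the start, the former at the upstream end of BEGAIN, a gene for a synaptic scaffold protein. A region at −33.4 kb was in 4 libraries, and a region at 124.3 kb, in MEG3, was in 3. MEG3 is the maternally expressed noncoding RNA of this imprinted domain. A single MYC peak was called in this window, at −171.0 kb.

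**Figure D3:**
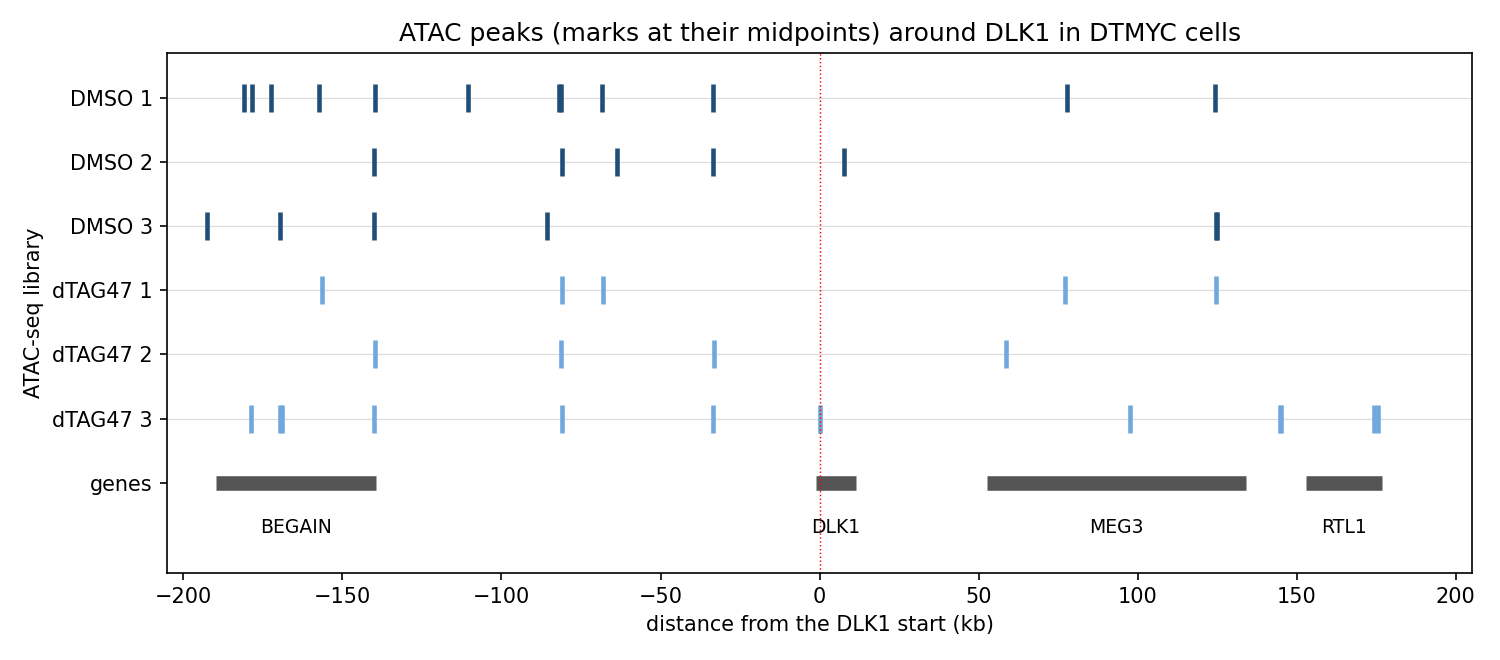
ATAC peaks within 200 kb of the DLK1 start in DTMYC cells, 1 line per library, with each peak drawn as a mark at its midpoint against the distance from the start in kb and genes drawn as bars below. The marks at −140.0 and −81.2 kb recur in 5 libraries each, and only dTAG47 library 3 has a mark at 0.

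Genes beside DLK1 were also higher in DTMYC cells, by less. BEGAIN was at 77.9 ± 4.15 CPM in DTMYC and 11.9 ± 1.03 in parental cells in DMSO, a log2 difference of 2.70. RTL1, an imprinted retrotransposon-derived gene of the placenta, was at 1.75 ± 0.199 and 0.513 ± 0.00673 CPM, a difference of 1.76. RTL1 overlaps transcripts of the opposite strand, from which its reads cannot be told apart here. The 5 tested genes further out, YY1, SLC25A29, SLC25A47, WARS and WDR25, had log2 differences between 0.24 and 0.59 in DMSO. Of these SLC25A47 changed sign in dTAG47, at −0.11. For comparison 15.3% of all tested genes were at least 2-fold higher in DTMYC cells in DMSO. BEGAIN gene bodies held 4.72 ± 1.24 CPM per kb of polymerase in DMSO and were also higher in library 1 in both treatments, by 1.46 and 1.33 times. MEG3 gene bodies were at 40.6 and 31.0 CPM in DMSO and at 46.1 and 42.0 in dTAG47, and those of MEG8, another noncoding RNA of the domain, at 6.68, 4.41, 7.14 and 6.07 CPM. Both were looked up after other values were seen. RTL1 had 0, 0, 0 and 4 gene body counts, and DIO3, the imprinted deiodinase gene at the far end, had none.

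**Figure D4:**
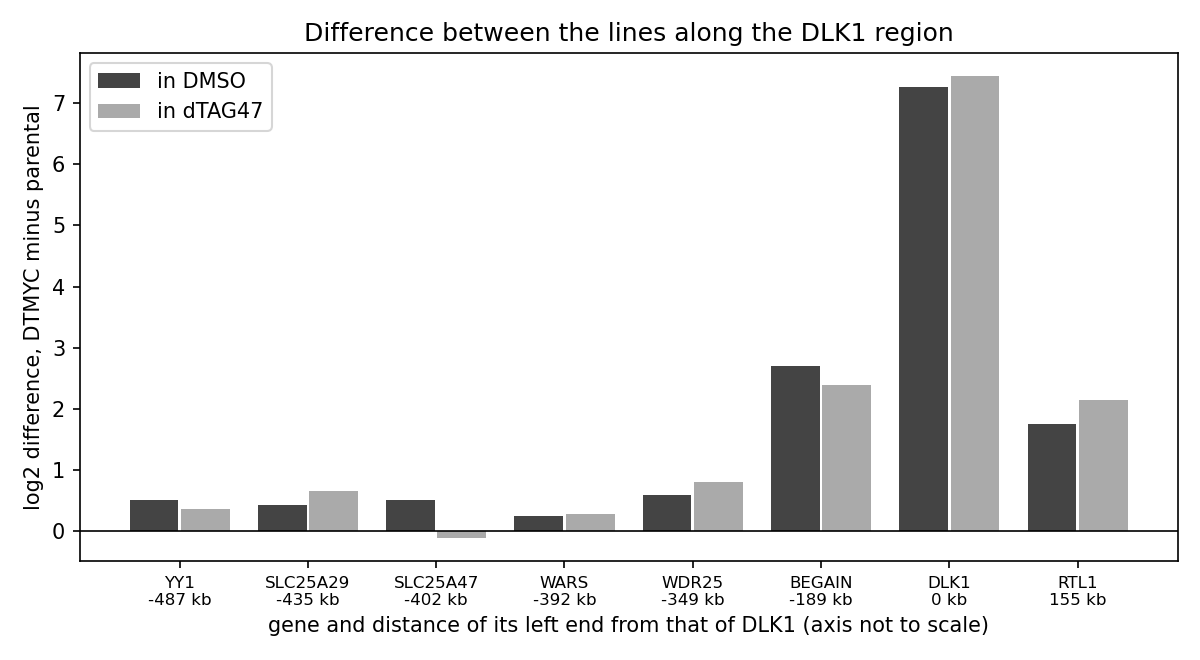
Log2 difference of mRNA between DTMYC and parental cells in DMSO (dark) and in dTAG47 (light), for the tested genes whose left end lies within 500 kb of that of DLK1, ordered by position. DLK1 stands at 7.26 and 7.44, BEGAIN at 2.70 and 2.39, RTL1 at 1.76 and 2.14, and the other genes below 1.

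The genes whose pattern over the 12 RNA-seq libraries was most like that of DLK1 lay on other chromosomes or far away. Likeness was the root mean square difference of log2 CPM after each gene's mean was removed. They were NPR1 at 0.35, S100A10 at 0.40, FLRT2 at 0.53, ALPK2 at 0.56, ST18 at 0.59 and KCNMA1 at 0.87. With a prior count of 0.5 in place of 2 in log2 CPM, 5 of these 6 were kept and KCNMA1 was not. NPR1, the receptor for atrial natriuretic peptide, was at 108 ± 4.53 CPM in DTMYC and 1.09 ± 0.218 in parental cells in DMSO, and S100A10, the partner of annexin A2, at 48.9 ± 4.12 and 0.151 ± 0.0182. FLRT2 is on chromosome 14 with DLK1, outside the 500 kb window. All 6 were higher in DTMYC cells in DMSO, by log2 differences from 5.55 to 8.30. The DLK1 pattern is mainly the difference between the lines, so this follows from how the 6 were chosen.

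The other members differed less between the lines. In DMSO the log2 difference of DTMYC from parental cells was 0.84 for PEG10, 0.78 for PHLDA2, 0.68 for PLAGL1, 0.51 for NNAT, 0.19 for IGF2R, 0.05 for IGF2 and 0.02 for PEG3. So 1 of the 8 tested members, DLK1, differed at least 2-fold, against 30.3% of all genes in DMSO and 32.4% in dTAG47. In dTAG47 the difference was −0.43 for PHLDA2, −0.15 for IGF2R and −0.17 for IGF2, opposite in sign to DMSO. Without parental DMSO library 3 the DMSO difference was 1.13 for PEG10 and 0.59 for PEG3, and without DTMYC DMSO library 2 it was 1.01 for PHLDA2, so that 2 members were at least 2-fold apart in either case. In parental DMSO library 3 PEG3 was at 48.7 CPM against 19.0 and 20.3 in the other parental DMSO libraries, and PEG10 at 275 CPM against 163 and 160.

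Per length, the order of mRNA levels in DTMYC cells in DMSO was DLK1 (242 ± 8.80 CPM per kb; SD, n = 3), PEG10 (53.9 ± 1.31), IGF2R (34.2 ± 1.54), PLAGL1 (5.60 ± 0.142), PEG3 (3.21 ± 0.0749), NNAT (2.00 ± 0.398), PHLDA2 (1.76 ± 0.599) and IGF2 (0.0320 ± 0.0193). Of these neighbours NNAT and PHLDA2 overlapped in their spread. In parental cells in DMSO PEG10 (30.1 ± 9.93) and IGF2R (30.0 ± 3.79) led and could not be ordered. PLAGL1 (3.49 ± 0.375) and PEG3 (3.16 ± 1.81) followed and overlapped, and DLK1 (1.58 ± 0.200) and NNAT (1.40 ± 0.104) came next and overlapped, above PHLDA2 (1.03 ± 0.193) and IGF2 (0.0296 ± 0.0142). IGF2 had 4 to 24 counts in every RNA-seq library and 1 to 7 in PRO-seq gene bodies. GRB10, an adaptor that dampens insulin and IGF receptor signalling, had 0 to 2 counts per RNA-seq library, under the floor of 3 counts, so no fold is given. MEST had 0 counts in all 4 PRO-seq libraries. NNAT, a membrane proteolipid gene, lies inside an intron-containing gene of the opposite strand, BLCAP. It had 63 to 104 RNA-seq counts per library but 0 in PRO-seq, where BLCAP had 403 to 528 gene body counts. Whether the RNA-seq counts used strand is not given in the sources used here, so NNAT reads cannot be told apart from BLCAP reads, and IGF2 shares its locus with INS-IGF2 and PEG3 with ZIM2 on the same strand.

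The dTAG47 comparison within DTMYC cells asks which of these genes follow the loss of MYC. In DTMYC cells 1 of the 8 tested members passed the edgeR quasi-likelihood test with Benjamini-Hochberg adjustment over all 13401 genes. It was PHLDA2, which fell, against 4.44% of all genes called lower and 8.71% called in either direction. PHLDA2 was at 2.18, 1.06 and 1.81 CPM in DMSO and at 0.828, 0.773 and 0.851 CPM in dTAG47, with all dTAG47 libraries below all DMSO libraries. It fell by 1.05 ± 0.28 on the log2 scale (SE), with an edgeR adjusted p of 0.0381. Its counts were low, 31 to 72 in DMSO and 24 to 26 in dTAG47. The call was lost without any DTMYC library other than DMSO library 2, and without parental dTAG47 library 3, with adjusted p between 0.0557 and 0.159 and log2 changes between −1.08 and −0.83.

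DLK1 had a log2 change of 0.16 ± 0.08 in DTMYC cells with an edgeR adjusted p of 0.292 and a 95% interval of −0.03 to 0.34, and its treated libraries all lay above its DMSO libraries. PEG10 was at 349, 366 and 357 CPM in DMSO and at 405, 418 and 403 in dTAG47, a log2 change of 0.19 ± 0.18. PEG3 was at 29.2, 29.6 and 30.6 CPM in DMSO and at 22.9, 23.9 and 23.3 in dTAG47, a log2 change of −0.35 ± 0.28. Groups did not overlap for these 3 genes or for PHLDA2, and the same held for 45.2% of all genes (DLK1 and PEG10 higher, PEG3 and PHLDA2 lower). The spread in this fit is shared with the parental libraries. When the fit held the 6 DTMYC libraries alone, DLK1 at 0.13 ± 0.04, PEG3 at −0.38 ± 0.06, PEG10 at 0.16 ± 0.04 and PHLDA2 at −1.08 ± 0.26 passed, 4 of the 8 members against 36.5% of 12594 genes. Without parental DMSO library 3 PEG3 passed at −0.39 ± 0.09 with an edgeR adjusted p of 0.00327 and PHLDA2 at −1.09 ± 0.27, against 29.2% of 13521 genes. IGF2R, PLAGL1 and NNAT had log2 changes of 0.02, −0.05 and 0.03, with 95% intervals of −0.16 to 0.21, −0.24 to 0.14 and −0.34 to 0.41. IGF2, at 4 to 13 counts in DTMYC libraries, had a log2 change of 0.60 ± 0.57.

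**Figure D5:**
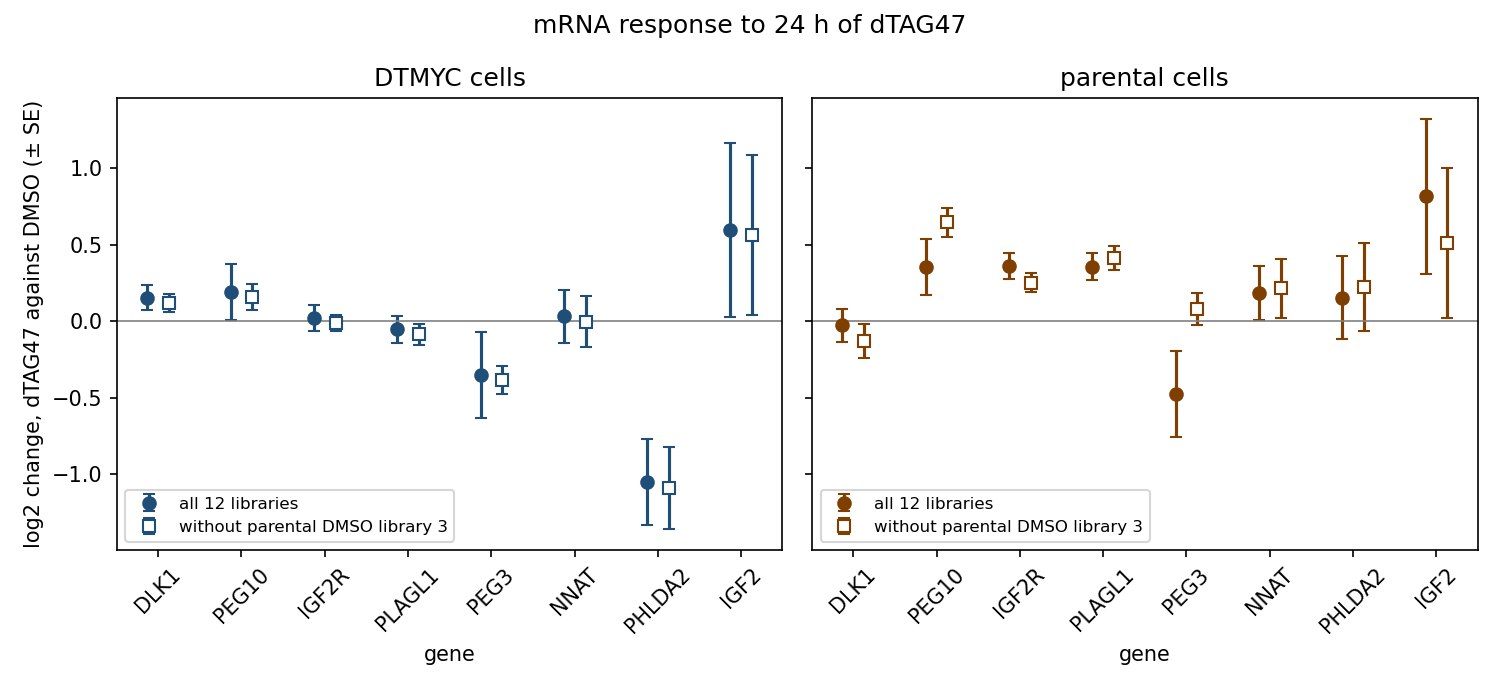
Log2 change of mRNA after 24 h of dTAG47 against DMSO, with its SE, in DTMYC cells (left) and parental cells (right), from the fit of all 12 libraries (filled) and without parental DMSO library 3 (open). PHLDA2 stands at −1.05 in DTMYC cells, and in parental cells PEG3 moves from −0.48 to 0.08 when that library is left out.

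Parental cells carry no degradable MYC and show what dTAG47 does without it. No member passed there with edgeR, against 0.127% of all genes, and 2 members had an unadjusted p under 0.05; with DESeq2 those 2, PLAGL1 and IGF2R, passed. IGF2R was at 330, 311 and 257 CPM in DMSO and at 379, 376 and 397 CPM in dTAG47, a log2 change of 0.36 ± 0.09 with an unadjusted p of 0.00117 and an edgeR adjusted p of 0.105. PLAGL1 was at 19.1, 21.9 and 23.7 CPM in DMSO and at 25.9, 28.4 and 28.5 in dTAG47, a log2 change of 0.36 ± 0.09 with an edgeR adjusted p of 0.113. Both had all treated libraries above all DMSO libraries, as did 8.73% of all genes, and 15.4% did not overlap in either direction. Without parental DMSO library 3 PEG10 passed at 0.65 ± 0.10, PLAGL1 at 0.42 ± 0.08 and IGF2R at 0.25 ± 0.06, with edgeR adjusted p of 2.81e-04, 0.00134 and 0.00725. That fit called 20.1% of all genes, so these 3 of 8 stand beside a much larger background. PEG3 was −0.48 ± 0.28 with that library and 0.08 ± 0.10 without it.

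The difference of the DTMYC and parental responses, which share no libraries, was tested as an interaction. No member passed with edgeR or DESeq2, against 1.19% of all genes with edgeR, and 3 members had an unadjusted p under 0.05. PHLDA2 had an interaction of −1.21 ± 0.39 with an edgeR adjusted p of 0.127, PLAGL1 of −0.41 ± 0.13 with 0.114 and IGF2R of −0.34 ± 0.12 with 0.162. Without parental DMSO library 3 these 3 passed at −1.32 ± 0.40, −0.50 ± 0.10 and −0.26 ± 0.08. PEG10 passed too, at −0.49 ± 0.13, and PEG3 at −0.47 ± 0.14, where with all libraries it was 0.12 ± 0.40. The 5 of 8 members stand against 17.9% of all genes called in that fit. For all 5 the response was lower in DTMYC cells than in parental cells.

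At 4 h no member and no other gene passed in PRO-seq with edgeR, in gene bodies or promoter-proximal regions, in a fit that ignored replicate numbers. There 1298 and 661 genes had an unadjusted edgeR p under 0.05. DESeq2 called 68 genes in gene bodies and 2 in promoter-proximal regions. With a term for replicate number, edgeR called 2226 genes higher and 2134 lower in gene bodies, PLAGL1 among them with an adjusted p of 0.0157. The labels do not say whether these numbers mark pairs. Of the 9 members with PRO-seq rows, 4 passed the filter in gene bodies and 3 in promoter-proximal regions. PLAGL1 gene bodies were at 75.1 and 75.1 CPM in DMSO and at 66.1 and 70.2 in dTAG47, a log2 change of −0.14 ± 0.09 with a 95% interval of −0.36 to 0.08. The groups did not overlap, as in 39.9% of all genes. DLK1 had −0.11 ± 0.28, PEG10 0.02 ± 0.12 and IGF2R 0.05 ± 0.08. IGF2R was at 34.8 and 28.6 CPM in promoter-proximal regions in DMSO and at 37.2 and 45.4 in dTAG47, a log2 change of 0.39 ± 0.26, and 35.5% of genes did not overlap there. PHLDA2, whose mRNA fell at 24 h, had 10, 9, 8 and 13 promoter-proximal counts and was under the filter.

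Other genes of these pathways came from lists chosen with earlier results of these data known. Of 23 tested imprinted genes outside the set, 2 rose in DTMYC cells and none fell, with a median log2 change of 0.14 against 0.03 over all genes, of which 4.27% were called higher. SLC22A18, a transporter gene 28.6 kb from PHLDA2 on chromosome 11, rose by 0.66 ± 0.15 with an edgeR adjusted p of 0.0188, and OSBPL5, an oxysterol-binding protein gene, by 0.45 ± 0.12. Of 23 genes of the IGF axis 2 rose. They were IGFBP3, which binds IGFs in the circulation, from 19.9 ± 0.644 to 29.8 ± 1.37 CPM, a log2 change of 0.59 ± 0.09, and SHC1, an adaptor of receptor kinases, at 0.42 ± 0.07. Of 20 genes of the Notch pathway, into which DLK1 feeds as a non-canonical ligand, RFNG, a modifier of Notch sugars, fell by 0.39 ± 0.09 and none rose. Of 16 factors that maintain imprints DNMT3B, a DNA methyltransferase, fell by 0.28 ± 0.07 and none rose. Both counts of lower genes stand beside the 4.44% called lower over all genes. In parental cells no gene of these lists passed. Leaving out single DTMYC libraries ended the calls of SLC22A18, OSBPL5, RFNG, DNMT3B and TH. The OSBPL5 call was also lost without any single parental dTAG47 library, with edgeR adjusted p from 0.0551 to 0.0581. It was lost too without the filter on low counts, with an edgeR adjusted p of 0.0554. IGFBP3 and SHC1 passed in all 12 fits that left out a library.

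Markers of other cell types stood as follows. In neuroendocrine and adrenal markers, cells in which DLK1 is normally expressed, 1 of 6 tested genes rose with dTAG47 in DTMYC cells, beside 4.27% of all genes. It was TH, tyrosine hydroxylase, which lies beside IGF2 and rose by 0.58 ± 0.12 from 6.74 ± 0.644 to 10.1 ± 0.282 CPM. The summed level of the 10 markers was 9.91 to 12.3 CPM in DTMYC and 4.32 to 4.91 CPM in parental DMSO libraries, and 14.4 to 15.1 CPM in DTMYC cells in dTAG47. TH was at 0.160 ± 0.0414 CPM in parental cells in DMSO and carried most of this difference: 3 of the 6 tested markers were higher in DTMYC cells in DMSO, and their median log2 difference was −0.18. Adipocyte and mesenchymal markers summed to 3111 to 3337 CPM in DTMYC and 1090 to 2118 CPM in parental DMSO libraries. Most of this was COL1A1, a fibrillar collagen, at 2036 ± 89.4 and 751 ± 303 CPM, and COL1A2, at 1059 ± 29.9 and 682 ± 203 CPM. Of the 5 tested markers 4 were higher in DTMYC cells in DMSO. Of these 2 were at least 2-fold higher, against 15.3% of all genes. In dTAG47 the list summed to 3724 to 3942 CPM in DTMYC cells, above every DTMYC DMSO library. All 5 tested markers had a positive log2 change (median 0.37), as did 7439 of 13401 genes, and none passed the test. Haematopoietic markers summed to at most 0.834 CPM, hepatoblast markers to at most 0.560 CPM and kidney epithelial markers to at most 51.0 CPM in any library. PAX2 made up most of the kidney epithelial sum, at 24.9 ± 0.480 CPM in DTMYC and 33.9 ± 7.22 CPM in parental cells in DMSO. No measured marker of the 5 lists was at 0 in all 12 libraries. Of the haematopoietic, hepatoblast and kidney epithelial markers 1, 1 and 5 were tested, and none passed in DTMYC cells, beside 8.71% of all genes. With so few genes tested, the absence of a call says little. The part of the marker lists in the DLK1 difference was not tested.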

How the data were processed

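The members and gene lists were chosen with earlier results of these data known. RNA-seq counts per gene were deposited by the authors as raw whole numbers, and PRO-seq counts per gene body and promoter-proximal region likewise. A gene body density, deposited as a signal per base without depth scaling, served only to recover gene body lengths. Peak scores, called per sample, are the authors' own (10 times −log10 q, per the file values). Tools listed in the submitters' processing notes, with no version or role, were cutadapt, Bowtie2, STAR, featureCounts, MACS2, DiffBind and DESeq2, and the build was hg19.

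The tests on counts used edgeR 4.0.16, under R 4.3.3 (filterByExpr by group, TMM, quasi-likelihood F-test, two-sided, Benjamini-Hochberg threshold 0.05), with all 12 RNA-seq libraries in 1 fit. Of the 10 members 8 were tested. CPM use TMM-normalised library sizes, and log2 CPM for likeness to DLK1 a prior count of 2. The alternative tool was DESeq2 1.42.0, and the others were RLE factors, no filter, a replicate block, the libraries of a line alone and leaving out each library. The fits were tested on simulated data. Starts came from GENCODE v44 on GRCh37. A peak counted when it overlapped the 1000 bases on either side of a start. Genes were named by rule: all members, up to 4 called genes per list, genes within 500 kb of DLK1, and the 6 most like DLK1. MEG3, MEG8 and DIO3 were added after values were seen. The comparison of lines selected the members and was not tested. Same-numbered libraries correlated between −0.05 and 0.37 in RNA-seq, and at 0.64 in PRO-seq gene bodies over only 2 pairs. The labels do not say that they were paired, so numbers were not treated as pairs in the main fits. IgG libraries and SMARCB1 were not analysed here. No column of the count tables lacked a sample.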

Additional observations from a re-analysis of the deposited data

Results flagged for a closer look

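In 5 genes of the lists around the imprinted set the response to dTAG47 differed between DTMYC and parental cells by the edgeR interaction test, and in no member. They are 3 of 23 tested genes of the IGF axis, 1 of 16 imprint maintenance factors and 1 of 5 kidney epithelial markers, and over all genes 1.19% were called. IGFBP3 had a log2 change of 0.59 in DTMYC and −0.15 in parental cells, an interaction of 0.74 ± 0.12 (SE) with an adjusted p of 0.0217. STC2, a secreted inhibitor of the protease that releases IGF, had −0.46 in DTMYC cells and an interaction of −1.96 ± 0.40. In parental cells STC2 rose from 0.0859 ± 0.0440 CPM in DMSO to 0.2365 ± 0.0473 CPM in dTAG47. These levels rest on at most 5 counts per parental DMSO library and at most 16 per parental dTAG47 library. IGFBP6, which prefers IGF2, had 0.43 and −0.38, an interaction of 0.81 ± 0.17. TET3, a DNA demethylase, had −0.26 and 0.33, an interaction of −0.59 ± 0.11. EPCAM, an epithelial adhesion gene, had 1.22 and −0.62, an interaction of 1.84 ± 0.40, on at most 13 counts per DTMYC library. The adjusted p of these 4 lay between 0.0351 and 0.0485, and each of the 5 calls was lost in 9 or 10 of the 12 fits that left out a library. With RLE factors, and with the replicate block, STC2, IGFBP6, TET3 and EPCAM lost the call, with adjusted p from 0.0536 to 0.0605 and from 0.0548 to 0.0746. Without the filter IGFBP6 and EPCAM lost it (0.0606 and 0.0674), and with DESeq2 all 5 passed.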

How the results depend on the processing

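Over the fits of single members 410 values kept their direction and side of the threshold, 26 changed sign, 14 gained a call and 6 lost one. In DTMYC cells the 6 libraries alone gave 2084 genes higher, 2509 lower and 4 members called, with IGF2R at −0.0051. In parental cells genes called higher and lower were 6 and 1 with RLE factors, 9 and 5 without the filter, 164 and 137 with DESeq2 (and 2 members, PLAGL1 with an adjusted p of 0.0165 and IGF2R with 0.0393), 4 and 1 with the replicate block, and 0 and 0 in the 6 libraries alone. The interaction gave 38 and 25 with RLE factors, 52 and 50 without the filter, 330 and 253 with DESeq2, and 49 and 30 with the block. PRO-seq gene bodies gave 2 lower without the filter and 6 and 62 with DESeq2. Promoter-proximal regions gave 1 and 1 in both. Requiring a score of at least 50 left 4 members with an ATAC peak, and a window of 5000 bases put a MYC peak at 1 member.

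Replicate numbers were shared by the groups, and the labels do not say whether they mark pairs. Same-numbered RNA-seq libraries did not all correlate above 0.1. In PRO-seq, with only 2 pairs, same-numbered libraries correlated at 0.64 in gene bodies and 0.35 in promoter-proximal regions. Libraries of unlike number correlated at −0.64 and −0.35 there, values that 2 libraries per group fix as the opposites and that add nothing. By the same-numbered correlations alone, library 1 and library 2 differed in part alike in both PRO-seq treatments, and the cause was not tested. With the replicate block PRO-seq gene bodies gave 2226 and 2134 genes and 1 member, PLAGL1 with an adjusted p of 0.0157, and promoter-proximal regions 93 and 169 genes.

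Leaving out each library in turn gave ranges. In DTMYC cells genes higher ranged from 163 to 1711, lower from 166 to 2240 and members called from 0 to 2, with NNAT from −0.079 to 0.20 and IGF2R from −0.014 to 0.050. In parental cells the ranges were 0 to 1240 higher, 0 to 1478 lower and 0 to 3 members, with DLK1 from −0.13 to 0.034, PEG3 from −0.71 to 0.080 and PHLDA2 from −0.024 to 0.34. The interaction ranged from 1 to 1122 higher, 4 to 1295 lower and 0 to 5 members, with IGF2 from −0.62 to 0.33, NNAT from −0.30 to 0.016 and PEG3 from −0.47 to 0.36. The highest counts all came without parental DMSO library 3, and the cause was not tested. Members at least 2-fold apart between lines in DMSO ranged from 1 to 2. PRO-seq gene bodies ranged from 0 to 6 higher and 5 to 38 lower, with DLK1 from −0.43 to 0.31, PEG10 from −0.062 to 0.086 and IGF2R from −0.011 to 0.081. Promoter-proximal regions ranged from 0 to 3 higher and 0 to 2 lower, with PEG10 from −0.28 to 0.34. Low counts limit IGF2, GRB10, PHLDA2 and NNAT, and the peak lists give no depth.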

Other observations

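Differences between the lines in the other lists are a description of these libraries, without a test. Of 23 tested imprinted genes outside the set 6 were at least 2-fold higher in DTMYC cells in DMSO and 6 at least 2-fold lower, against 2054 and 2008 of 13401 genes. GPR1, a G protein-coupled receptor gene, was higher in DTMYC cells, at 1.64 ± 0.227 CPM, with at most 4 counts per parental DMSO library. ATP10A, a phospholipid flippase gene on chromosome 15, had 0 counts in all 3 DTMYC DMSO libraries and 125 ± 6.99 CPM in parental cells. It was therefore at least 1341-fold lower against a floor of 3 counts per library. CDKN1C, the maternally expressed CDK inhibitor beside PHLDA2, had at most 17 counts per DTMYC DMSO library and 11.8 ± 2.57 CPM in parental cells, a log2 difference of −4.83. NDN, a MAGE family gene, was at 0.328 ± 0.110 and 1.67 ± 0.0473 CPM.

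In the IGF axis 2 of 23 tested genes were at least 2-fold higher and 4 at least 2-fold lower, a share below the 30.3% of all genes. IGFBP2 had at most 8 counts per DTMYC library and 106 ± 24.2 CPM in parental cells in DMSO, a log2 difference of −9.05, and STC2 at 6.33 ± 0.442 and 0.0859 ± 0.0440 CPM. IGFBP5 had 0 counts in the DTMYC DMSO libraries and 0.608 ± 0.121 CPM in parental cells, so it was at least 6.53-fold lower. PIK3R1, the regulatory subunit of PI3 kinase, was at 0.634 ± 0.0966 and 14.3 ± 4.97 CPM. Of 16 tested imprint maintenance factors 5 were at least 2-fold higher and 1 at least 2-fold lower, against 30.3% of all genes in either direction. The lower gene was CTCFL, with a log2 difference of −2.59 on at most 16 counts per parental DMSO library. HELLS had a log2 difference of 1.77, and DNMT3B was at 178 ± 4.09 and 71.1 ± 3.99 CPM. SMCHD1, a chromatin protein needed for silencing at imprinted clusters, was at 195 ± 11.5 and 73.9 ± 28.1 CPM. Of 20 tested genes of the Notch pathway 5 were at least 2-fold higher and 3 at least 2-fold lower, beside the same 30.3%. HEYL, a Notch target, was at 0.0329 ± 0.0343 and 2.27 ± 0.139 CPM. MFNG and DLL4 had log2 differences of −1.78 and −1.54, and JAG2, a ligand, of 1.51.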
